A study of Mesostigma viride with 16 samples.

Results

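NUC-L1 (gene Mv02515-RA) is the nucleolin homolog in the gene models of Mesostigma viride, a single-celled freshwater streptophyte alga. It is 1 gene of the 24431 listed in the expression tables and of the 14297 that passed the filter of at least 0.5 FPKM in 2 or more libraries. FPKM is the number of sequenced fragments of a transcript, divided by its length and by the size of the library, so levels of different genes can be set side by side. The gene was chosen by its FPKM in every library of all 8 conditions, read with earlier results of these data known. Its levels, their order and their changes are therefore given as a description and without a test, and only other genes were tested. The name comes from the list of epigenetic genes compiled in the study, which sets Mv02515-RA beside Arabidopsis NUC-L1 and gives no separate M. viride gene for NUC-L2.

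All libraries came from strain NIES-296, from polyadenylated RNA of cells kept in medium C at pH 7.5, 23 °C and 50 µmol photons m-2 s-1 under a light-dark cycle of 10 and 14 h. Cultures were moved for 24 h to darkness, to high light (400 µmol photons m-2 s-1), to cold (12 °C) or to high temperature (32 °C), and untreated cells served as Control 1. Cultures at low pH (6.0, set with Tris-HCl) or high pH (9.0, set with NaOH) for 24 h were compared with Control 2, untreated cells that received the same volume of medium C. Each condition had 2 libraries, described in the methods as biological replicates, except Control 1, of which 1 library (replicate 2) was used and replicate 1 was not analysed here.

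Nucleolin is an abundant RNA-binding protein of the nucleolus, the compartment in which ribosomal RNA is transcribed and ribosomal subunits are assembled. In animals and yeast, nucleolin and its relatives take part in the transcription of ribosomal RNA genes by RNA polymerase I and in the first steps of pre-rRNA processing. In Arabidopsis, NUC-L1 is the broadly expressed form, and its loss alters the chromatin of the ribosomal RNA genes and slows growth. No sequence or coordinate of the gene is printed, because no genome or sequence table of M. viride was used here.

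NUC-L1 was a strongly expressed gene in untreated cells, reached its highest level in cold, and was far lower in darkness and lowest at high temperature. The untreated libraries read 51.1 FPKM in Control 1 and 54.1 and 55.3 FPKM in Control 2, a mean of 53.5 ± 2.15 FPKM (SD, n = 3). In cold the 2 libraries read 84.3 and 88.5 FPKM. In high light they read 45.0 and 44.8 FPKM. All 3 untreated libraries thus lay between those of cold and those of high light.

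The lower levels came with the loss of light and with heat. In darkness the libraries read 16.2 and 16.8 FPKM, below every library of the other conditions except those at high temperature. At 32 °C they read 2.96 and 2.72 FPKM, the 2 lowest values of the series. Both pH conditions stayed close to the untreated level, on its lower side. Low pH gave 39.4 and 39.6 FPKM and high pH 44.1 and 45.4 FPKM.

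**Figure D1:**
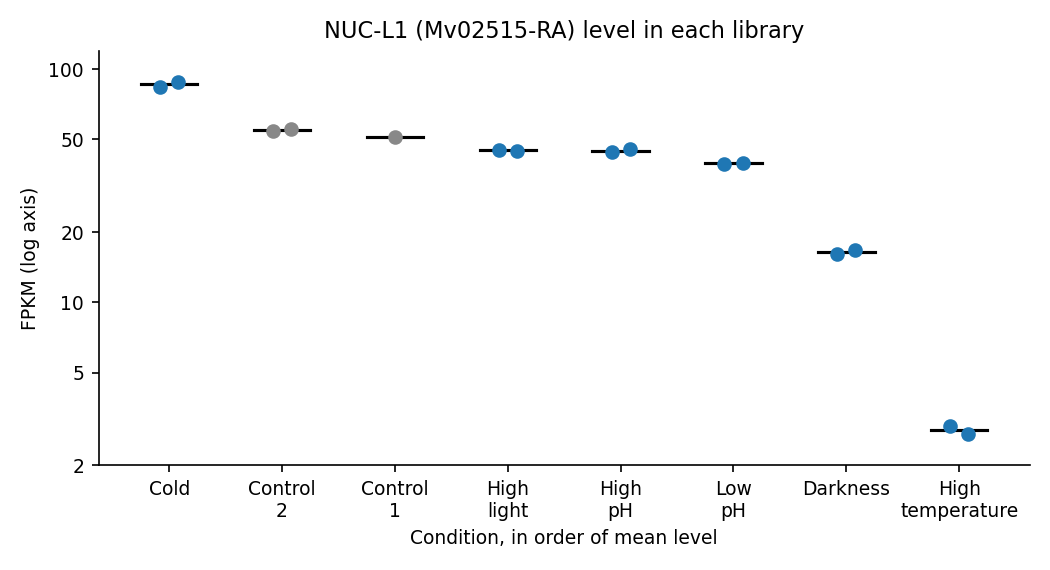
FPKM of NUC-L1 in each of the 15 libraries on a log axis, with conditions in order of their mean level. Points are libraries (grey for untreated), bars are condition means; cold lies highest at 84.3 to 88.5 FPKM and high temperature lowest at 2.72 to 2.96 FPKM.

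Ordered by mean level, the conditions ran from cold (86.4 ± 2.96 FPKM, SD, n = 2) through Control 2 (54.7 ± 0.825), Control 1 (51.1, 1 library), high light (44.9 ± 0.129), high pH (44.8 ± 0.908), low pH (39.5 ± 0.167) and darkness (16.5 ± 0.414) to high temperature (2.84 ± 0.171). High light and high pH were the only neighbours in this order whose libraries overlapped, and their means differed by less than the spread of their replicates. The other neighbours did not overlap. The gap between Control 2 and Control 1 was 2.99 FPKM against a replicate range of 1.17 FPKM in Control 2, but Control 1 had no second library to give its own spread. Cold stood 29.1 FPKM above the next condition, low pH 22.6 FPKM above darkness and darkness 13.2 FPKM above high temperature, each well above the larger replicate range of 4.18, 0.586 and 0.586 FPKM.

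Replicates of NUC-L1 differed by 0.406% in high light, the closest pair, and by 8.88% at high temperature, the widest. Pooled over the 7 replicate pairs, the SD was 0.0417 on the log2 scale. The highest condition mean was 30.5-fold the lowest, and 5.25-fold the lowest once high temperature was left out. On the log2(FPKM + 0.1) scale the level spanned 4.88 over the 8 conditions, against a median span of 1.97 over the tested genes, and 98% of tested genes had a smaller span. Without high temperature the span was 2.38 against a median of 0.882, and 94.5% of genes had a smaller one. The gene's variation was thus wide with and without the heat-treated libraries.

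Set against the other genes of the same library, NUC-L1 moved from the upper end to the middle of the transcriptome. In cold, 94.0% and 94.3% of the tested genes had a lower FPKM, and the NUC-L1 level was 11.8 and 12.1 times that of the median gene. In Control 1 the share was 91.1% and in the Control 2 libraries 91.7% and 92.0%. In darkness it was 74.1% and 74.8%, with a level 2.08 and 2.15 times the median gene. At high temperature 49.8% and 51.1% of genes were lower, so NUC-L1 sat at the median gene, 0.991 and 1.06 times its level. This ranking uses no scaling between libraries, and it places the conditions at the ends of the order, cold above and darkness and high temperature below, as FPKM did. High light (89.0% and 89.2%), high pH (89.9% and 90.1%) and low pH (88.7% and 88.5%) lay just under the untreated libraries.

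FPKM is a share of each library's RNA and not an amount per cell, so less transcript per cell and more RNA from other genes cannot be told apart. The FPKM summed to 578174 to 683704 per library, and replicate libraries correlated at 0.9837 to 0.9874 over log2 values. The tables hold no read counts, so the number of fragments behind each value is unknown. The heat-treated libraries stood apart from the rest: their median tested gene was at 2.57 and 2.98 FPKM, against 7.14 to 8.58 FPKM in the other 13 libraries. A change at high temperature is therefore given both as it stands and relative to the median change of all tested genes.

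In darkness, where the alga receives no light for photosynthesis, NUC-L1 was 3.10-fold lower than in Control 1, a log2 change of −1.63. The median change of all tested genes was −0.10, and 221 genes (1.55% of those tested) were lower by at least as much. By the limma test (adjusted p of at most 0.01 and at least a 2-fold change), 5.15% of tested genes were called in darkness, 1.13% higher and 4.02% lower. This count of 737 genes rests on the single Control 1 library, and with Control 2 as the reference it was 1464. The opposite light shift left the gene in the middle of the distribution. In high light the log2 change was −0.18, beside a median of −0.20 over all genes, and 51.1% of tested genes were lower by as much or more. Between high light and darkness, a comparison that needs no control library, NUC-L1 was 2.73-fold higher in high light, and 4.69% of tested genes were higher by as much.

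In cold NUC-L1 was 1.69-fold higher than in Control 1, a log2 change of 0.76, while the median gene was lower by 0.26 on the log2 scale. Relative to that median the change was 1.02, and 966 genes (6.76%) were higher by as much or more. High temperature gave the largest change of the gene in either direction, 18.0-fold lower or −4.13 on the log2 scale. The median gene was itself at −1.29, which leaves −2.83 relative to it, and 560 genes (3.92%) were lower by as much. Between the 2 temperature treatments, the level was 30.5-fold higher in cold, and 71 genes (0.497%) differed by as much in that direction. Cold against high light, both of which held the gene above 40 FPKM, gave a 1.92-fold higher level in cold, reached by 109 genes (0.762%).

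The pH shifts gave the smallest departures outside high light, both towards lower levels. At low pH NUC-L1 was 1.38-fold lower than in Control 2 (log2 change −0.47, with 8.63% of genes lower by as much). At high pH it was 1.22-fold lower (log2 change −0.29, with 27.4% of genes lower by as much). Low pH was 1.13-fold below high pH and the libraries did not overlap. The 2 untreated groups also differed, with Control 2 at 1.07-fold Control 1, a log2 difference of 0.10. Relative to the median gene that difference was 0.15, more than the 0.01 of high light.

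**Figure D2:**
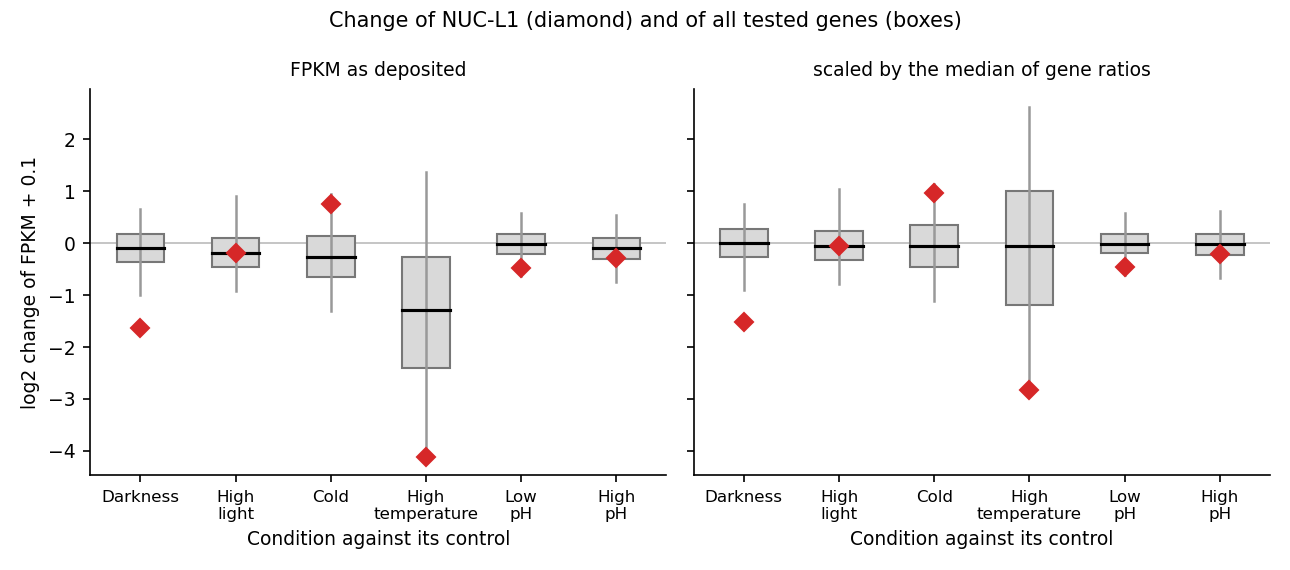
Change of NUC-L1 (diamonds) in each condition against its control on the log2(FPKM + 0.1) scale, beside all 14297 tested genes (box, middle 50%; whiskers, 5th to 95th percentile; black line, median), for FPKM as deposited and after scaling by the median of gene ratios. NUC-L1 lies below the whisker in darkness in both panels, at −1.63 and −1.53, and moves from −4.13 to −2.83 at high temperature when the shift of the median gene is scaled away.

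The scaling between libraries set the size of some of these changes but none of their signs. After scaling to the median of gene ratios the change was −1.53 in darkness, 0.96 in cold and −2.83 at high temperature, and it was −0.05 in high light. That last value is near the pooled replicate SD of 0.0417. Relative to the median gene the change in high light was 0.01, so these scaled values give no direction there. Against Control 2 in place of the single Control 1 library, the changes were −1.73 for darkness, −4.22 for high temperature, 0.66 for cold and −0.28 for high light.

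Genes that combined these shifts were counted over all tested genes. Of the 724 genes lower by at least 1 on the log2 scale in darkness, 253 were higher in cold than in Control 1. A log2 difference of at least 0.5 in cold was found for 151 of the 724, and 46 of these were also lower by at least 1 at high temperature. NUC-L1 is 1 of the 46. With the limits set at its own changes in darkness, in cold and at high temperature, 1 gene, itself, met all 3. It met them by construction, and taken singly they were reached by 1.55%, 6.76% and 3.92% of tested genes. The share of all tested genes higher in cold was not computed beside these counts. The 3 comparisons share the same Control 1 library, so these counts describe the gene's pattern and are not separate lines of evidence.

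The other genes linked by name or annotation to ribosomes, the nucleolus or ribosomal RNA in the study's tables did not share one course with NUC-L1. They were 6: RPS13A, CBF5, HDA6, ENGB and 2 genes known by their Gene Ontology (GO) terms. Not all are genes of ribosome production alone: HDA6 is a histone deacetylase, and Mv09805-RA is also annotated as a photosynthetic enzyme. RPS13A (Mv10742-RA), a protein of the small ribosomal subunit, was far more abundant than NUC-L1. It read 2212 FPKM in Control 1, 2004 and 2212 in Control 2, 1901 and 2034 at high temperature, and 1356 and 1365 in cold. Its highest values were those of high pH, 2431 and 2417 FPKM, and its lowest those of cold, where NUC-L1 was highest. No change of RPS13A was called, its log2 changes being −0.11 in darkness, −0.70 in cold and −0.17 at high temperature (limma adjusted p = 0.235, 4.88e-06 and 0.0219, the second missing the 2-fold limit). At high temperature the direction depended on the scaling: with the median of gene ratios it was 1.15 (limma adjusted p = 5.29e-06) and called.

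CBF5 (Mv22244-RA) is the homolog of dyskerin, the enzyme of the nucleolus that makes pseudouridine in ribosomal RNA. Its level was 95.5 FPKM in Control 1, 83.0 and 86.4 in darkness, 107 and 99.2 in cold, and 20.3 and 17.3 at high temperature. Of its 6 changes the one at high temperature was called (log2 change −2.34, limma adjusted p = 4.37e-10), whereas its change in darkness was −0.17 (adjusted p = 0.163). CBF5 thus kept near its untreated level in the dark-treated libraries, in which NUC-L1 was 3.10-fold lower.

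HDA6 (Mv06591-RA), a histone deacetylase that silences surplus ribosomal RNA genes in Arabidopsis, followed the course of CBF5. It read 16.6 FPKM in Control 1, 13.8 and 14.3 in darkness, 18.5 and 19.4 in cold, and 2.10 and 1.71 at high temperature, where it fell by 3.06 on the log2 scale (limma adjusted p = 8.9e-09). ENGB (Mv01251-RA) is the homolog of a GTPase that assembles the large ribosomal subunit in bacteria. It came nearest to NUC-L1 among the 6, with 6.46 FPKM in Control 1, 10.5 and 10.2 in cold, and 0.460 and 0.548 at high temperature. Its log2 change was 0.67 in cold, under the 2-fold limit (limma adjusted p = 0.000777), and −3.44 at high temperature (adjusted p = 2.59e-10, called), but −0.26 in darkness (adjusted p = 0.132).

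The 2 genes known by GO terms went in opposite directions at high temperature. Mv17255-RA, annotated to the nucleolus and to heat acclimation, read 19.3 FPKM in Control 1 and 1.91 and 1.96 at high temperature (log2 change −3.25, limma adjusted p = 4.49e-10). Mv09805-RA carries the term rRNA processing together with ferredoxin-NADP+ reductase activity, a chloroplast enzyme of photosynthetic electron transport. It read 82.7 FPKM in Control 1, 211 and 234 at high temperature, 194 and 189 in darkness, 40.2 and 41.1 in high light, and 35.3 and 35.4 in cold. Its libraries were highest in the conditions in which NUC-L1 was lowest and lowest in cold, in which NUC-L1 was highest. The pH shifts did not follow this opposite course. There it averaged 37.4 FPKM (low pH) and 41.8 FPKM (high pH) against 71 FPKM in Control 2, lower as NUC-L1 was. These log2 changes of −0.92 and −0.77 were under the 2-fold limit. It rose by 1.21 in darkness and 1.43 at high temperature and fell by 1.22 in cold on the log2 scale (limma adjusted p = 7.98e-07, 9.45e-09 and 3.48e-07). In high light it fell by 1.02 (adjusted p = 1.95e-06), a call lost at −0.80 with Control 2 as the reference and at −0.88 with the median of gene ratios.

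Counted over the 6 genes, 1 rose and none fell in darkness, 1 fell in high light (where 5.81% of all tested genes were called, 3.55% higher and 2.26% lower), and 1 fell in cold (12% called, 3.76% higher and 8.28% lower). In darkness 5.15% of all tested genes were called, 1.13% higher. At high temperature 4 fell and 1 rose, against 62.2% of all tested genes called, 55.3% lower and 6.83% higher. The gene that rose in darkness and at high temperature and fell in high light and in cold was Mv09805-RA each time. Apart from it, the calls were the 4 falls at high temperature. None was called at low pH (1.57% of genes called, 0.664% higher and 0.902% lower) or high pH (2.25% called, 0.79% higher and 1.46% lower). By limma at an unadjusted p under 0.05 the counts would be 2 of 6 at low pH and 4 of 6 at high pH. The share of all tested genes under that limit was not computed, so these counts cannot be read as an excess. The median change of the 6 was −0.17 in darkness, 0.09 in cold and −2.70 at high temperature, beside −0.10, −0.26 and −1.29 over all tested genes. With the median of gene ratios the count at high temperature was 4 lower and 2 higher, RPS13A being the second, beside 27% of all tested genes lower and 23.3% higher. The log2 changes of the 4 lower genes were smaller with that scaling, −1.02 for CBF5, −1.78 for HDA6, −2.26 for ENGB and −1.97 for Mv17255-RA.

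**Figure D3:**
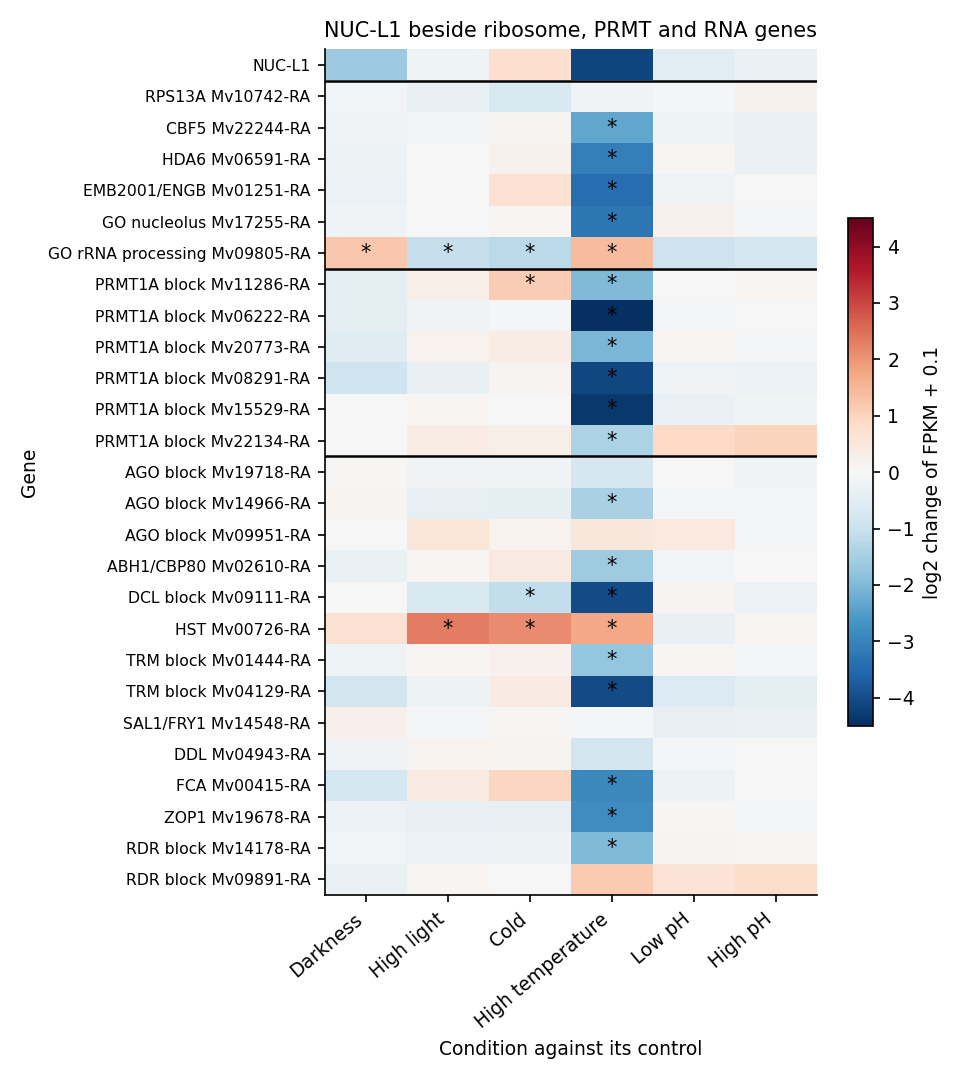
Log2 change (colour, FPKM + 0.1) in each condition against its control for NUC-L1 and for tested genes of 3 lists. The lists are ribosome and nucleolus (which includes HDA6 and Mv09805-RA), the protein arginine methyltransferases and RNA processing. A star marks a gene called by the limma test. Stars gather in the high temperature column; NUC-L1 carries none because it was not tested.

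Protein arginine methyltransferases modify the arginine- and glycine-rich tail of nucleolin in yeast and animals. The study lists 6 M. viride genes as homologs of PRMT1A, which share that one query and are not independent of each other. All 6 fell at high temperature, where 55.3% of all tested genes fell, and their median log2 change was −3.08 beside −1.29 over all tested genes. Mv06222-RA went from 17.0 FPKM in Control 1 to a mean of 0.648 FPKM (log2 change −4.52, limma adjusted p = 4.31e-12), Mv15529-RA changed by −4.35 and Mv08291-RA by −4.10. Mv15529-RA was so low there (mean 0.202 FPKM) that its change was −2.55 with a pseudocount of 1, and Mv08291-RA was at −2.53 with quantile normalization. Mv20773-RA fell by 2.05 on the log2 scale, but its change was −0.80 with the median of gene ratios and −0.07 with quantile normalization (limma adjusted p = 0.764), neither of them called. With the median of gene ratios 3 of the 6 were called lower, beside 27% of all tested genes. None of the 6 was called in darkness, in high light, at low pH or at high pH. Of all tested genes 5.15%, 5.81%, 1.57% and 2.25% were called there, so no call among 6 genes stays near those shares. Of the 6 genes, 4, 3, 2 (low pH) and 2 (high pH) had an unadjusted p under 0.05 by limma. No share of all tested genes was computed for that limit. In cold 1 rose, beside 3.76% of all tested genes higher. It was Mv11286-RA (log2 change 1.13, limma adjusted p = 8.54e-07), named here after its values were seen. Its call was lost at 0.93 with Control 2 as the reference.

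Of 17 genes of RNA processing and small RNAs, 14 were tested. At high temperature 8 fell and 1 rose, beside 55.3% of all tested genes lower and 6.83% higher, and the median change was −1.53 beside −1.29. The share of the 14 that fell was thus near that over all genes. With the median of gene ratios the count became 4 lower and 4 higher, beside 27% and 23.3% over all genes, so no direction held for the group. The largest changes belonged to Mv09111-RA, a Dicer-like ribonuclease that cuts small RNA precursors (log2 change −4.03, limma adjusted p = 7.36e-10), to Mv04129-RA, a tRNA methyltransferase (−4.01, adjusted p = 7.92e-06), to Mv00415-RA, the homolog of FCA (−2.90, adjusted p = 5.11e-10), and to Mv19678-RA, the homolog of the splicing factor ZOP1 (−2.80, adjusted p = 5.06e-09). A pseudocount of 1 reduced the first 2 to −2.37 and −2.47, and the median of gene ratios reduced the others to −1.60 and −1.53. None of the 14 was called in darkness, at low pH or at high pH (5.15%, 1.57% and 2.25% of all tested genes called). There 3, 4 (low pH) and 2 (high pH) had an unadjusted p under 0.05 by limma, again without a share over all genes. The gene that rose at high temperature was Mv00726-RA, the homolog of HST, which exports microRNAs from the nucleus in Arabidopsis. On the log2 scale it rose by 2.31 in high light and by 2.14 in cold as well (limma adjusted p = 4.8e-08 and 7.63e-08), and it is named after its values were seen. In cold, Mv09111-RA fell by 1.12 (adjusted p = 0.000184), a call lost with 6 alternatives, among them Control 2 as the reference (−0.64).

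Ribosome production and cell growth are linked, and 17 cell cycle genes of the study's tables were set beside NUC-L1 for that reason. In darkness 4 fell and none rose, beside 4.02% of all tested genes lower and 1.13% higher. CYCA1;1 (Mv18326-RA), an A-type cyclin, fell by 1.60 and the E2F-type transcription factor Mv08288-RA fell by 1.25 on the log2 scale (limma adjusted p = 3.31e-06 and 0.000207). The others were Mv23038-RA, a cyclin-dependent kinase homolog (−1.38), and Mv02252-RA, a homolog of the Aurora kinases of mitosis (−1.24), named after their values were seen. Listed relatives of these genes were not called in darkness. The other Aurora homolog, Mv07940-RA, was at 0.00, and the genes listed with Mv08288-RA were at 0.14, −0.07 and −0.21. The other cyclin-dependent kinase homologs were at −0.43, −0.36 and −0.05, and the mitotic cyclin Mv06860-RA was at −0.96. The calls of Mv18326-RA, Mv08288-RA and Mv23038-RA were lost with Control 2 as the reference, at −0.20, −0.82 and −0.88, so they rest on the single Control 1 library, in which Mv18326-RA read 47.0 FPKM against a mean of 17.9 FPKM in Control 2. At high temperature 14 of the 17 fell, beside 55.3% of all tested genes, and with the median of gene ratios 11 fell and 2 rose, beside 27% lower and 23.3% higher. Without scaling 1 rose, the cyclin-dependent kinase homolog Mv14758-RA (log2 change 2.64, limma adjusted p = 1.43e-09, named after its values were seen). The largest change was that of Mv08388-RA, the homolog of the spindle checkpoint protein BUB3 (log2 change −6.48, limma adjusted p = 5.55e-09), which was −4.27 with a pseudocount of 1.

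In cold 4 of the 17 fell and 1 rose, beside 8.28% of all tested genes lower and 3.76% higher. The median of the 17 was −0.55, beside 0.76 for NUC-L1 and −0.26 for all tested genes, with 14 of them below 0 and 3 above. The mitotic cyclin Mv06860-RA had a log2 change of −1.68 in cold, −1.63 at low pH and −1.33 at high pH (limma adjusted p = 7.24e-06, 7.25e-06 and 2.44e-05, all called). It was the 1 cell cycle gene called at each pH, beside 1.57% (low pH) and 2.25% (high pH) of all tested genes. The Aurora homolog Mv07940-RA (−1.67), CYCA1;1 (−1.23) and Mv02252-RA (−1.05) also fell in cold. The last 2 calls were lost against Control 2, where Mv18326-RA was at 0.17 and Mv02252-RA at −0.87. Both were lost against all untreated libraries too (−0.30 and −0.93). The call of Mv02252-RA was also lost with a pseudocount of 1 (−0.92), equal totals (−0.93), the median of gene ratios (−0.85) and quantile normalization (−0.80). In high light Mv06860-RA and Mv07940-RA fell (−1.18 and −1.21), and Mv14758-RA rose in high light and in cold (1.58 and 1.77). Of all tested genes 2.26% were called lower and 3.55% higher in high light.

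Of the other genes in the list of epigenetic genes, 23 of 25 were tested. In darkness 6 fell and none rose, beside 4.02% of all tested genes lower. Mv10940-RA, a homolog of the histone methyltransferase SDG8, fell by 2.74 on the log2 scale (limma adjusted p = 1.83e-07). The other listed SDG8 homologs, Mv04757-RA and Mv09974-RA, changed by −0.19 and −0.43, were not called, and are named for comparison. Mv09173-RA, a homolog of the DNA methyltransferases CMT3 and MET1, fell by 2.49 (limma adjusted p = 2.32e-06). Against Control 2 the change of Mv09173-RA was −1.37, still called. A second gene listed for DNA methylation, Mv19944-RA, fell by 1.22 (adjusted p = 0.00146), a call lost at −0.61 with Control 2. Another, Mv12885-RA, went the other way at 0.52 and was not called. Mv18898-RA (−2.66) and Mv14270-RA (−1.86) fell further in darkness than Mv19944-RA. These last 3 genes are named for comparison after their values were seen. At high temperature 19 of the 23 fell and none rose, beside 55.3% of all tested genes lower. With the median of gene ratios 15 fell and 1 rose, beside 27% and 23.3%, and with quantile normalization 12 fell. Without scaling, the largest falls had log2 changes that included −5.50 for Mv10940-RA and −4.12 for the histone demethylase homolog Mv09530-RA (limma adjusted p = 3.62e-11 and 1.17e-09), which were −3.62 and −2.31 with a pseudocount of 1. Of all tested genes 8.28% were called lower in cold, 0.902% at low pH and 1.46% at high pH. Mv10940-RA was the 1 gene of the 23 called in cold (−1.09), at low pH (−1.31) and at high pH (−1.55), each time lower. Its call in cold was lost with 6 alternatives, at −0.49 against Control 2. The other SDG8 homologs lay between −0.08 and 0.26 in cold and at both pH values. At high temperature Mv04757-RA was called at −3.28, and Mv09974-RA, at −0.94, was not. In high light none of the 23 was called, beside 5.81% of all tested genes. An unadjusted p under 0.05 by limma was found for 5, again without a share over all genes.

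Among all 45 tested epigenetic genes, NUC-L1 had the 6th lowest change in darkness and the 5th lowest at high temperature, but the 4th highest in cold. Lower by 0.5 in darkness and higher by 0.5 in cold held for 2 of the 45, NUC-L1 and FCA. The share of all tested genes within these limits was not computed. In the count over all genes above, the limit in darkness was 1, which FCA did not reach. NUC-L1 was itself chosen with its values known, so the count is a description and cannot show that the pattern is rare or that the genes are linked. FCA is an RNA-binding protein that acts in 3′ end processing of transcripts in Arabidopsis. It averaged 36.5 FPKM in Control 1, 72.3 ± 0.779 in cold, 48.2 ± 3.53 in high light, 21.3 ± 0.698 in darkness and 4.83 ± 0.666 at high temperature (SD, n = 2 for the treatments). Its changes in darkness and cold (log2 −0.78 and 0.98, limma adjusted p = 0.000266 and 3.08e-05) did not reach the 2-fold limit.

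The genes whose course was most like that of NUC-L1 were found by the root mean square (RMS) difference between centred profiles, in which each gene's mean over the 8 conditions was set to 0 on the log2 scale. The search covered the 12705 tested genes whose mean reached 1 FPKM, of which 407 had a name or annotation in the study's tables. The nearest named genes were Mv04129-RA (tRNA methyltransferase homolog, RMS difference 0.34), Mv08291-RA (arginine methyltransferase homolog, 0.36), Mv21836-RA (GO terms of protein metabolism and several membranes, 0.40), Mv03959-RA (GO term membrane, 0.40) and FCA (0.42). Their Pearson r with NUC-L1 lay between 0.97 and 0.98. These correlations are over 8 condition means that share the control libraries and the wide shift at high temperature, and 22.3% of the 12705 genes had an r of at least 0.9. Without high temperature that share was 2.64%, and 2 of the 5 nearest named genes, Mv21836-RA and FCA, were again among the 5 nearest. Mv04129-RA averaged 0.363 ± 0.305 FPKM at high temperature (SD, n = 2), a low value with uneven replicates. Among the named genes it ranked 11 without high temperature and 8 with each library as a point.

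The nearest of all genes was Mv15540-RA, which has no name in the tables used. Its RMS difference was 0.19 and its r 0.99, and it came first in each of the 4 ways of computing the likeness. Its mean level was 81.6 FPKM in Control 1, 181 in cold, 110 in high light, 30.8 in darkness and 6.49 at high temperature. It shared the low value in darkness and the high value in cold, but was higher in high light than in Control 1 (log2 change 0.44), where NUC-L1 was at −0.18. The next was Mv14820-RA (RMS difference 0.29, r 0.98), also without a name.

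The named genes most opposed in course were Mv13939-RA, a homolog of T-type cyclins, which act with a kinase in transcript elongation (r −0.95), Mv13778-RA, an R2R3-MYB transcription factor (r −0.94), and Mv22503-RA, annotated with the GO term binding (r −0.90). Each was highest at high temperature, where they averaged 60.0, 106 and 184 FPKM, against 37.4, 54.5 and 60.8 FPKM in Control 1. In cold they averaged 31.7, 49.0 and 27.6 FPKM, below Control 1 in each case. Without high temperature their r was −0.70, −0.74 and −0.73, and they ranked 32, 22 and 27 from the most negative among the 407 named genes. With the median of gene ratios they ranked 20, 14 and 7, so other named genes were then more opposed.

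**Figure D4:**
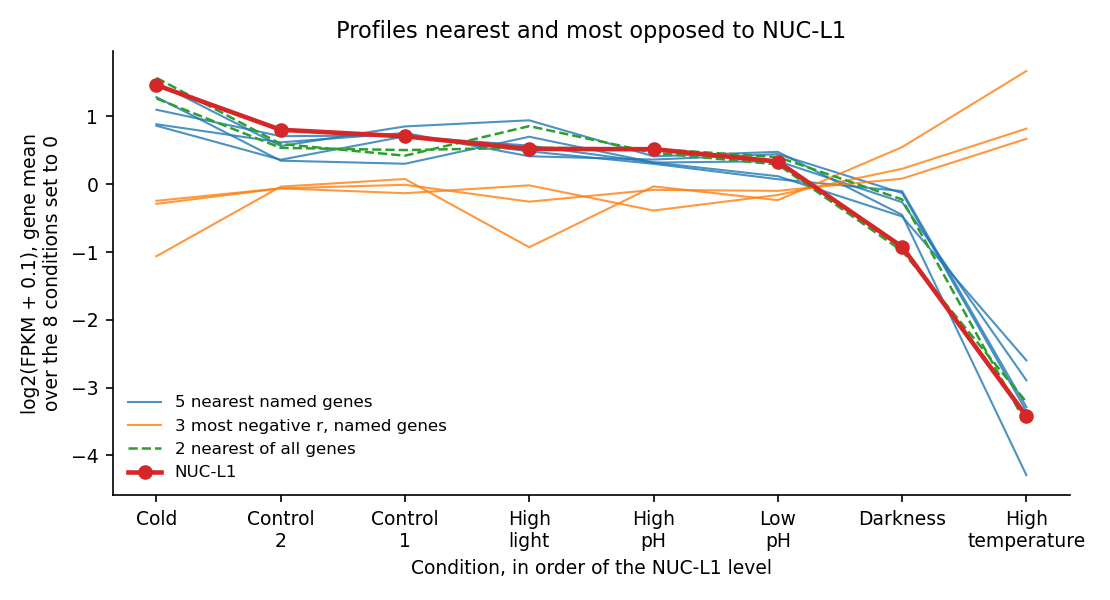
Level on the log2(FPKM + 0.1) scale, with each gene's mean over the 8 conditions set to 0, for NUC-L1 (red), the 5 nearest named genes (blue), the 2 nearest of all genes (dashed green) and the 3 named genes with the most negative r (orange). Conditions are in order of the NUC-L1 level; all but the orange genes drop from darkness to high temperature.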

How the data were processed

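The authors filtered reads with FastQC, mapped them to their M. viride genome with HISAT2 and computed FPKM with Cufflinks, and the deposited tables used here hold FPKM for 24431 genes in 15 libraries (Control 1 replicate 1 was not analysed here); DESeq2, which they used on counts, was not run because no counts were used here. The members and lists were chosen with earlier results of these data known. From the FPKM, log2(FPKM + 0.1) was tested with limma 3.58.1 in R 4.3.3, with 1 mean per condition, a trended prior variance, 7 residual degrees of freedom and Benjamini-Hochberg adjustment over 14297 genes; adding 0.1 understates fold changes of low genes. Called genes had an adjusted p of at most 0.01 and a log2 change of at least 1 in size. The test was checked on simulated data. Named were NUC-L1, all 6 genes of the ribosome and nucleolus list and up to 4 called genes per other list with the largest change. The 5 nearest and 3 most opposed named profiles and the 2 nearest of all were also named, and exceptions are marked. Of 451 genes named in the tables, 437 were listed and 419 tested. Alternatives were pseudocounts of 1 and 0.01, other filters, 4 scalings, other references, a false discovery rate of 0.05, a replicate block and leaving out each replicate.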

Additional observations from a re-analysis of the deposited data

How the results depend on the processing

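The alternatives run for NUC-L1 were 2 pseudocounts, 4 scalings, other references and leaving out each replicate. NUC-L1 kept the sign of its change in all 6 comparisons under them, but the sign in high light has little support. Its log2 change in darkness was −1.58 with a pseudocount of 1, −1.71 with equal totals, −1.48 with upper quartile scaling, −1.53 with the median of gene ratios, −1.73 against Control 2 and −1.69 against all untreated libraries. In high light it was −0.13 with equal totals, −0.05 with the median of gene ratios, −0.29 with quantile normalization, −0.28 against Control 2 and −0.25 against all untreated libraries. In cold the same 5 alternatives gave 0.89, 0.96, 0.62, 0.66 and 0.69. At high temperature it was −3.76 and −4.17 with pseudocounts of 1 and 0.01, −4.19 with equal totals, −3.20 with the upper quartile, −2.83 with the median of gene ratios, −2.82 with quantile normalization, −4.22 against Control 2 and −4.19 against all untreated libraries. At high pH it was −0.21 with the upper quartile and −0.20 with the median of gene ratios. Leaving out each replicate gave −1.65 to −1.60 in darkness, −0.19 to −0.18 in high light, 0.72 to 0.79 in cold, −4.18 to −4.07 at high temperature, −0.48 to −0.45 at low pH and −0.31 to −0.27 at high pH.

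Over all tested genes, the count called in darkness was 737, and 1464 against Control 2. With a pseudocount of 1 it was 1138 in cold and 198 at high pH, against 1722 and 322. Calls at high temperature were 977 higher and 7909 lower, and 3325 higher and 3863 lower with the median of gene ratios; in cold the split went from 538 and 1184 to 743 and 615, in darkness from 162 and 575 to 217 and 453, in high light from 507 and 323 to 598 and 185, and at high pH from 113 and 209 to 134 and 142. Of 54 calls of named genes, 48 were kept with the median of gene ratios, 46 against all untreated libraries and 54 without any single library other than that of Control 1, and 40 of the 50 against Control 1 were kept against Control 2. Against Control 2 the change of Mv18326-RA in cold was 0.17 in place of −1.23. Without high temperature 2 of the 5 nearest named genes stayed the same. Replicate numbers did not pair the samples (r of −0.0807 to 0.0655 over 21 pairs), and with the replicate block all 54 calls of named genes were kept. The causes of these differences were not tested. With 2 libraries a condition, 1 in Control 1 and no read depth, small changes have little support.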
